A study of Mus musculus with 18 samples.

Results

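The members are the nuclear genes that encode subunits of the 4 respiratory chain complexes and of the ATP synthase, measured by RNA sequencing in EpCAM+ cells of the adult mouse lung. They were taken by symbol (Ndufa, Ndufb, Ndufc, Ndufs and Ndufv genes, the 4 Sdh genes, Uqcr genes, Cyc1, Cox4 to Cox8 genes and Atp5 genes), without assembly factors and pseudogenes. Of 15544 genes in the deposited values, 82 were members: 35 of complex I, 4 of complex II, 9 of complex III, 17 of complex IV and 17 of the ATP synthase. Ndufa4, whose protein sits in complex IV, its relative Ndufa4l2 and Cox7a2l were counted with complex IV. All 82 passed the filter on low levels (a mean of at least 6 log2 units over all libraries). Another 16 symbols of the annotation fitted the pattern and were pseudogenes or were not analysed here.

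The 18 libraries came from mice of 4 genotypes aged 10 to 12 weeks. There were 4 double-heterozygous libraries (Falcor+/-;Foxa2+/-, replicates 15 to 18), 4 Foxa2+/- libraries (replicates 11 to 14), 5 Falcor-/- libraries (replicates 6 to 10) and 5 wild-type libraries (replicates 1 to 5). Foxa2 is a forkhead transcription factor active in lung epithelium, and the gene of the non-coding RNA Falcor is its neighbour; the comparisons ask how the cells' RNA differs when Falcor, 1 copy of Foxa2, or 1 copy of each is disrupted. EpCAM, an epithelial adhesion protein, was the target of a magnetic bead sort before RNA was extracted. How the alleles were made, and whether each library is 1 animal, is not given in the sources used here, so p-values measure the spread between libraries.

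Oxidative phosphorylation passes electrons from NADH (complex I) and succinate (complex II) through complexes III and IV to oxygen, and the proton gradient built on the way drives the ATP synthase. Most subunits are encoded in the nucleus, and a few core subunits of every complex except complex II are encoded by the mitochondrial genome. The nuclear subunit genes are expressed in nearly all cells and tend to vary together, while a few, mostly of complex IV, exist as isoforms for muscle, testis or low oxygen. In the alveolar epithelium, type 2 cells are rich in mitochondria and spend much energy on surfactant.

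The targeted genes followed the labels, except that Falcor RNA stood above wild type in both groups with a disrupted Foxa2 copy. The Falcor RNA (listed as 9030622O22Rik) averaged 6.20 ± 0.68 log2 units in Falcor-/- libraries and 10.18 ± 0.48 in wild-type libraries (SD, n = 5 each). In double-heterozygous libraries, labelled as carrying 1 disrupted Falcor copy, it averaged 11.66 ± 0.15 (SD, n = 4), which is 1.48 log2 units above wild type (adjusted p = 0.0024). Foxa2+/- libraries, with no labelled change in Falcor, stood as high, at 11.70 ± 0.21 (SD, n = 4; 1.52 above wild type, adjusted p = 0.0032), and the difference between both groups was -0.04 (adjusted p = 0.95). Foxa2 fell by 0.60 in double-heterozygous libraries and fell by 0.57 in Foxa2+/- libraries on the log2 scale. Falcor-/- libraries, with no labelled change in Foxa2, differed from wild type in Foxa2 by -0.23, which was not called (limma, adjusted p = 0.11). Epcam ranged from 13.75 to 14.48 in all libraries. The mean level of the 10 epithelial markers was 14.64 to 14.89 in double-heterozygous and 14.69 to 14.76 in Foxa2+/- libraries. It was 14.62 to 14.91 in Falcor-/- and 14.51 to 14.63 in wild-type libraries. Markers of cells that the sort should remove were also present. The mean level of 15 endothelial markers was 10.46 to 11.01 in double-heterozygous, 10.91 to 11.40 in Foxa2+/-, 11.66 to 13.45 in Falcor-/- and 12.07 to 13.51 in wild-type libraries. In bulk RNA, fewer cells of a type and less RNA per cell cannot be told apart.

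In Falcor-/- cells the subunit genes stood higher than in wild-type cells by a small and widely shared amount. Of the 82 members, 79 had a higher mean, the median difference was 0.32 log2 units against 0.03 for all genes tested, and 11 passed the test (adjusted p below 0.05) as higher. The share of all genes called higher was 5.23%. None was called lower, against 4.24% of all genes. Before adjustment 63 members (76.8%) had p below 0.05 in limma, all of them higher, against 33.5% of all genes in either direction. Each complex took part, with median differences of 0.32 in complex I, 0.27 in complex II, 0.30 in complex III, 0.37 in complex IV and 0.31 in the ATP synthase.

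**Figure D1:**
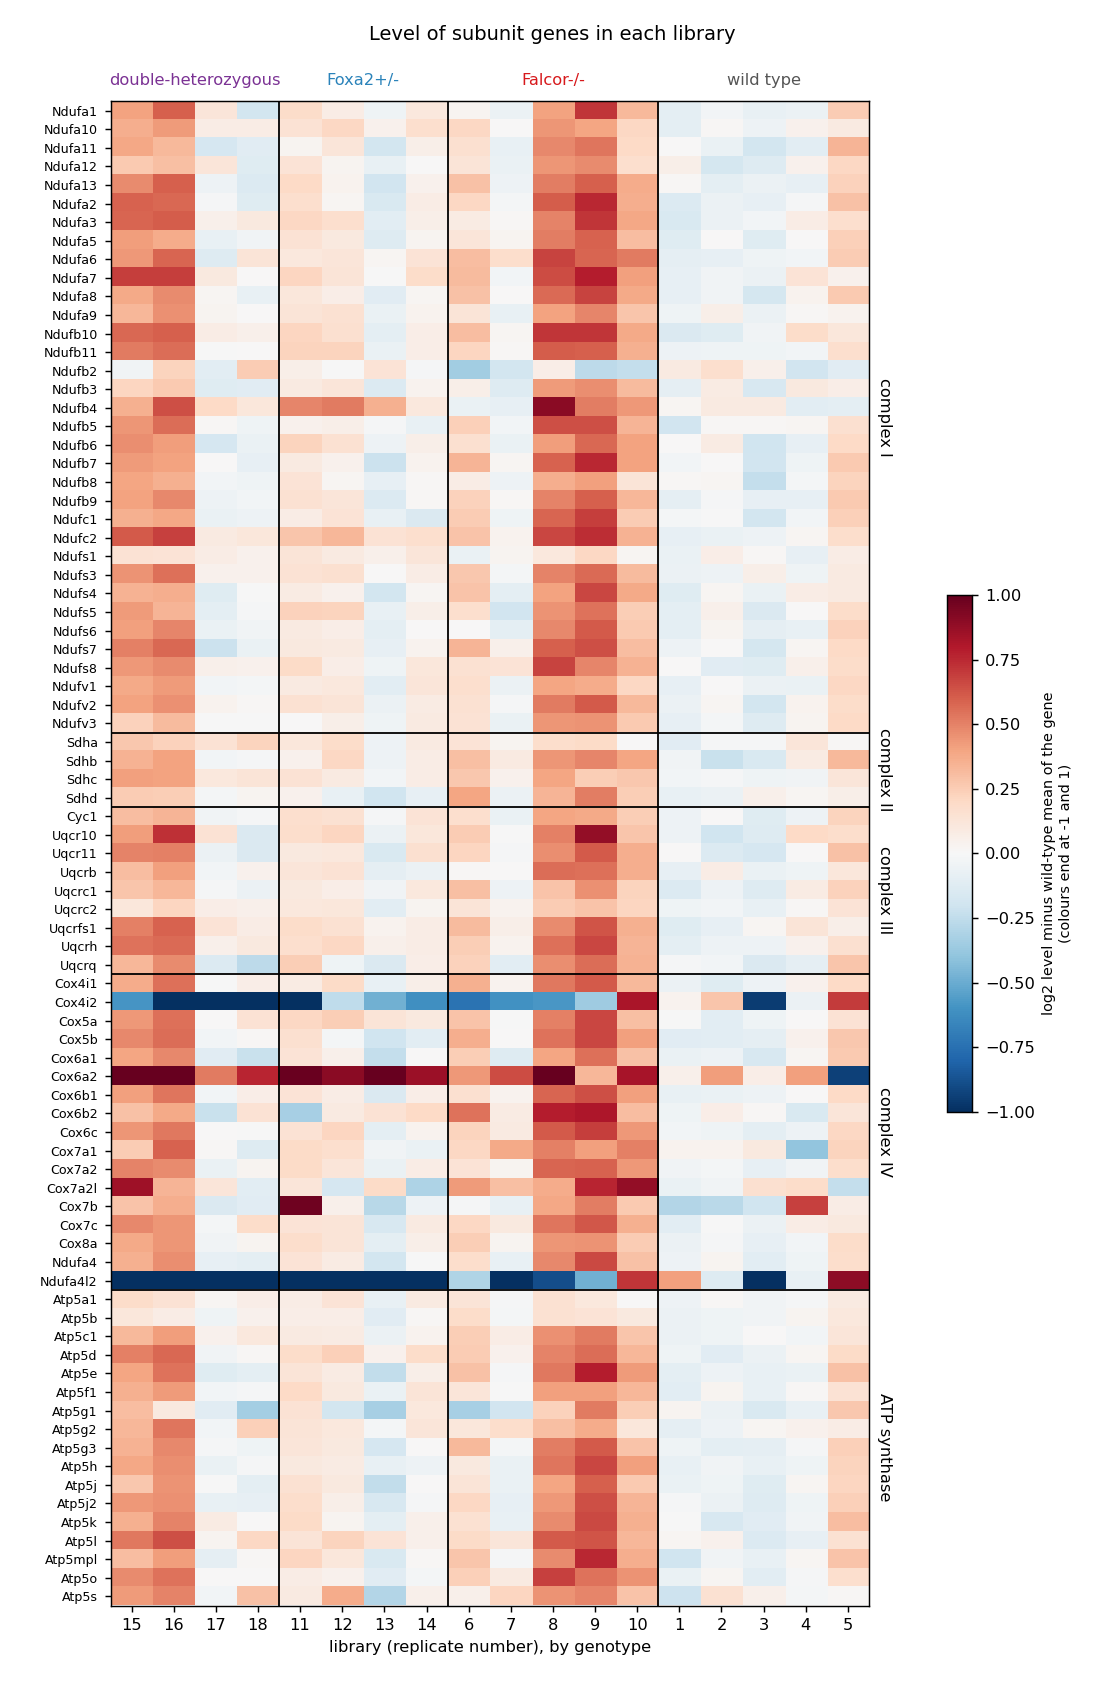
Level of 81 of the 82 subunit genes in each library, as the log2 level minus the gene's wild-type mean, with rows grouped by complex and columns by genotype (double-heterozygous, Foxa2+/-, Falcor-/-, wild type). Columns 15 and 16 of the double-heterozygous group and columns 8, 9 and 10 of the Falcor-/- group are red in nearly every row, while Ndufa4l2 and Cox4i2 are blue in the double-heterozygous and Foxa2+/- columns.

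Among the genes of complex I, the NADH dehydrogenase, 2 of 35 were called. Ndufa6, an accessory subunit that binds the mitochondrial acyl carrier protein, had 12.73, 12.60, 13.10, 13.00 and 12.95 log2 units in Falcor-/- libraries, against 12.33, 12.34, 12.38, 12.40 and 12.67 in wild-type libraries. Only replicate 5 of the wild type reached into the Falcor-/- range. The difference was 0.45 ± 0.12 (SE, adjusted p = 0.031). Ndufs8, a core subunit that carries iron-sulfur clusters, averaged 12.29 ± 0.23 in Falcor-/- and 11.93 ± 0.13 in wild-type libraries (SD, n = 5 each, adjusted p = 0.0499). Other core genes did not pass: Ndufs3 (0.32), Ndufs7 (0.39) and Ndufv2 (0.32) had differences near the median of the members, and Ndufv1 (0.22) and Ndufs1 (0.06) had smaller ones. Ndufb2, an accessory subunit, differed by -0.19 ± 0.10 and was the member of complex I with a negative difference.

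In complex II, succinate dehydrogenase, Sdhc was called. Sdhc, 1 of the pair of membrane anchors, had 12.86, 12.62, 12.98, 12.83 and 12.86 log2 units in Falcor-/- libraries, against 12.56, 12.57, 12.54, 12.55 and 12.71 in wild-type libraries. The difference was 0.24 ± 0.07 (SE, adjusted p = 0.048), and replicate 7 of Falcor-/- lay below replicate 5 of the wild type. Its partner anchor Sdhd differed by 0.29 (adjusted p = 0.052), the iron-sulfur subunit Sdhb by 0.34 (adjusted p = 0.056) and the flavoprotein Sdha by 0.11 (adjusted p = 0.21). In complex III, Uqcrfs1, the Rieske iron-sulfur protein, averaged 13.03 ± 0.21 in Falcor-/- and 12.67 ± 0.10 in wild-type libraries (SD, n = 5 each, adjusted p = 0.043). Cyc1, cytochrome c1, differed by 0.23 (adjusted p = 0.12).

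Complex IV, cytochrome c oxidase, held 5 of the 11 calls. Cox7a2l, a relative of subunit VIIa that joins complexes III and IV into supercomplexes, had 13.27, 13.15, 13.22, 13.61 and 13.73 log2 units in Falcor-/- libraries, against 12.78, 12.82, 13.01, 13.04 and 12.61 in wild-type libraries. The groups did not overlap, and the difference of 0.55 ± 0.16 was the largest of the calls (SE, adjusted p = 0.044, exact permutation p = 0.0079, the smallest that 5 against 5 libraries allow). Cox7c, an accessory subunit, had 12.16, 12.05, 12.49, 12.57 and 12.31 in Falcor-/- libraries, against 11.84, 11.94, 11.89, 12.02 and 12.04 in wild-type libraries, also without overlap (difference 0.37, adjusted p = 0.044). Cox6b2, an isoform known from testis, differed by 0.51, Cox6c by 0.41 and Cox4i1, the isoform of subunit IV found in most tissues, by 0.37. In 3 of the 82 members (Cox7a2l, Cox7c and Atp5g2) every Falcor-/- library lay above every wild-type library, against 4.22% of all genes, a share near that of the members.

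In the ATP synthase, Atp5c1, the gamma subunit of the central stalk, had 13.48, 13.30, 13.69, 13.75 and 13.51 log2 units in Falcor-/- libraries, against 13.17, 13.19, 13.23, 13.21 and 13.35 in wild-type libraries. Replicate 7 of Falcor-/- lay within the wild-type range (difference 0.31 ± 0.08, SE, adjusted p = 0.032). Atp5o, the stalk subunit that holds the catalytic head in place, averaged 12.82 ± 0.24 in Falcor-/- and 12.42 ± 0.10 in wild-type libraries (SD, n = 5 each, adjusted p = 0.044). The genes Atp5g1, Atp5g2 and Atp5g3 encode the same ring protein with different targeting sequences, and their differences were 0.09, 0.22 and 0.34, none of which passed. Processed pseudogenes exist for many of these genes, and reads shared with them would enter the levels in a way that was not tested.

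The Falcor-/- difference depended on single libraries and on how strictly a call was made. Without replicate 8 or 9 of Falcor-/-, or without replicate 1, 2 or 4 of the wild type, no member was called. There were 2 calls without replicate 6 or replicate 10, 3 without replicate 3, 18 without replicate 5 and 63 without replicate 7. The share of all genes called in either direction moved too, from 9.47% with all libraries to 2.32% without replicate 1, 3.06% without replicate 8, 9.98% without replicate 5 and 25.7% without replicate 7. The median difference of the members stayed between 0.25 and 0.41. A fit of the 2 genotypes alone called 2 members and 3.17% of all genes. A fit that gave less weight to libraries far from their genotype's mean called 52 members and 22.6% of all genes. Replicate 7 had the lowest of these weights, 0.45.

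**Figure D2:**
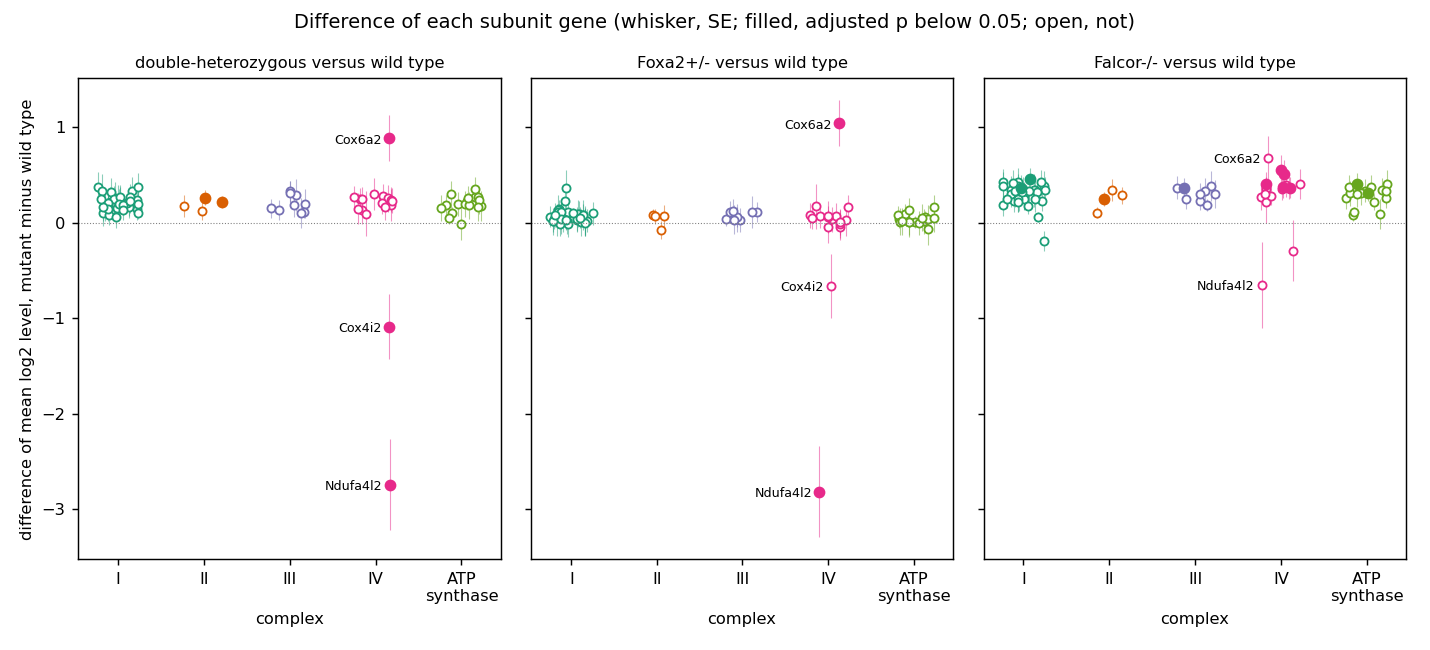
Difference of mean log2 level between each mutant genotype and wild type for each subunit gene (points, with the SE as whisker), by complex, for double-heterozygous, Foxa2+/- and Falcor-/- cells. Filled points have an adjusted p below 0.05. Most points lie between 0 and 0.45, and Cox6a2, Cox4i2 and Ndufa4l2 of complex IV stand apart from the rest.

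In Foxa2+/- cells the members as a group stood close to wild type. The median difference was 0.05 log2 units, against 0.04 for all genes tested, and 1 member was called higher and 1 lower. The shares of all genes called were 1.96% higher and 4.15% lower, and the members' shares were no higher. Both called genes belong to complex IV and are described below. In the other complexes the members with the smallest p did not pass: Ndufb4 (difference 0.37, adjusted p = 0.28) in complex I, Sdha (0.08, adjusted p = 0.51) in complex II, Cyc1 (0.11, adjusted p = 0.64) in complex III and Atp5d (0.16, adjusted p = 0.55) in the ATP synthase. Every Foxa2+/- library lay above every wild-type library in 2 members, Ndufb4 and Cox6a2, against 5.97% of all genes. The Foxa2+/- libraries were also alike in these genes, with a median SD over libraries of 0.11 for members and 0.14 for all genes tested.

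In double-heterozygous cells 79 of 82 members had a higher mean than in wild-type cells, with a median difference of 0.20 against 0.07 for all genes tested. Of the 82, 3 were called higher (7.21% of all genes) and 2 lower (7.57% of all genes). Before adjustment 21 members (25.6%) had p below 0.05, against 29.8% of all genes tested. Sdha, the flavoprotein of complex II that oxidises succinate, had 14.23, 14.19, 14.11 and 14.19 log2 units in double-heterozygous libraries, against 13.85, 13.96, 13.96, 14.09 and 13.98 in wild-type libraries, without overlap (difference 0.22 ± 0.06, SE, adjusted p = 0.026). Sdhc had 13.00, 12.99, 12.69 and 12.71 in double-heterozygous libraries, against 12.56, 12.57, 12.54, 12.55 and 12.71 in wild-type libraries (difference 0.26 ± 0.08, SE, adjusted p = 0.032). Its replicates 17 and 18 lay near the highest wild-type library and replicates 15 and 16 well above it. Every double-heterozygous library lay above every wild-type library in 3 members, against 8.61% of all genes. Sdha lost its call without replicate 15, 16 or 1 (adjusted p = 0.081, 0.066 and 0.069), and Sdhc without any of replicates 15, 16, 1, 2, 3 and 4 (0.059 to 0.122). The count of called members, 5 in all, was 2 without replicate 15, 1 without replicate 16, 12 without replicate 17, 2 without replicate 1, and 3 without replicate 2 or replicate 4. The share of all genes called, 14.8% with all libraries, was 9.09%, 8.84%, 13.4%, 10.8%, 11.7% and 11.5% in the same order. With library weights 57 members were called, beside 32.4% of all genes.

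The mean of a genotype hid a wide spread between its libraries. As the median deviation of the 82 members from their wild-type means, the double-heterozygous replicates 15 and 16 stood at 0.39 and 0.46, and replicates 17 and 18 at -0.02 and 0.00. The Foxa2+/- libraries stood at 0.14, 0.10, -0.08 and 0.06, and the Falcor-/- libraries at 0.21, -0.01, 0.48, 0.58 and 0.33. The wild-type libraries stood at -0.06, -0.03, -0.07, 0.00 and 0.18. Replicate 7 of Falcor-/- and replicates 17 and 18 of the double-heterozygous group thus lay within the wild-type range, below wild-type replicate 5. The median SD over libraries was 0.26 for members and 0.20 for all genes tested in the double-heterozygous group, 0.25 and 0.23 in Falcor-/-, and 0.13 and 0.17 in the wild type.

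**Figure D3:**
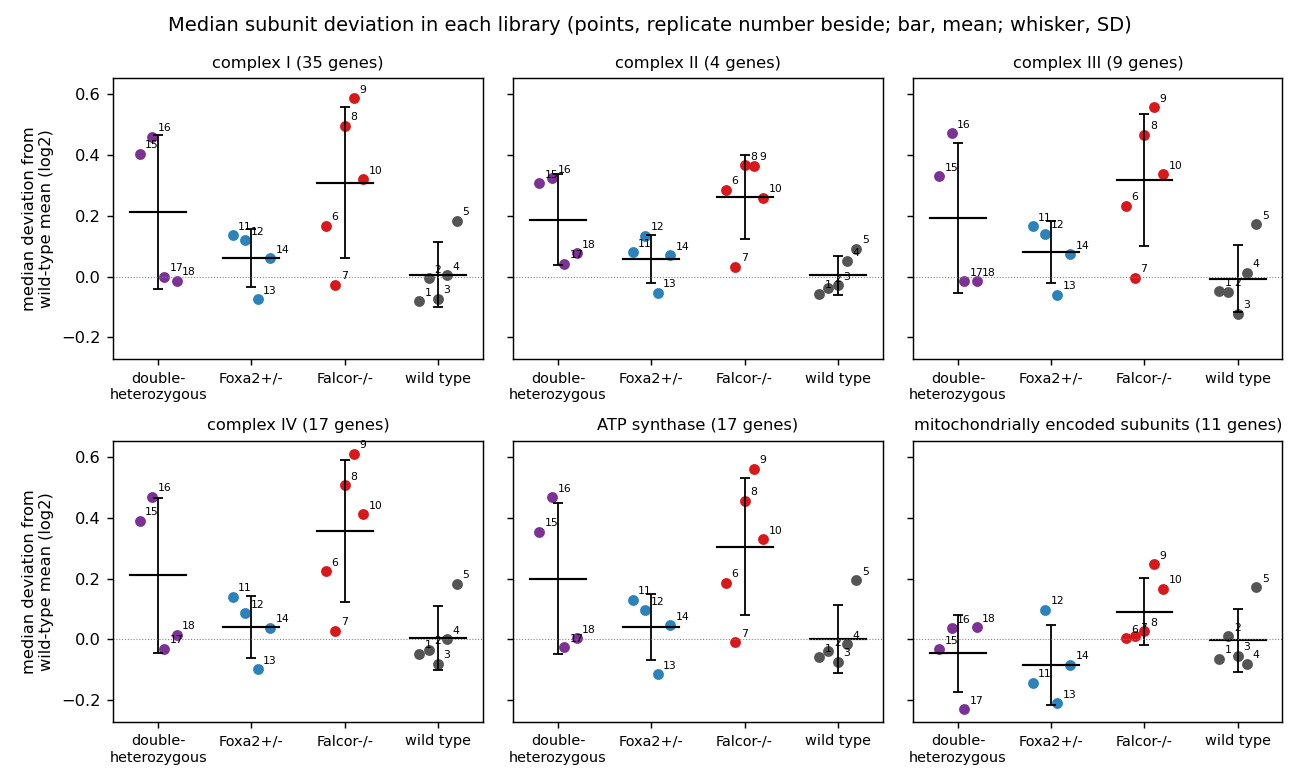
Median deviation of the genes of each complex from their wild-type means (log2) in each library (points, with replicate numbers), with the mean (bar) and SD (whisker) of each genotype, and in the last panel the same for 11 subunits encoded by mitochondrial DNA. Replicates 8, 9 and 16 hold the highest 3 medians in each of the 5 complexes, while for the mitochondrially encoded subunits replicates 15 and 16 lie near 0.

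Most members moved from library to library as a block that spanned the complexes. The median Pearson r between 2 members of the same complex was 0.90 over the 18 libraries (909 pairs), and 0.88 between members of different complexes (2412 pairs). Complex I held 595 of the pairs within a complex. By complex, the medians were 0.91 in complex I, 0.89 in complex III and 0.85 in the ATP synthase, and 0.74 in complex II and 0.67 in complex IV, below that between complexes. With the genotype means subtracted, the pooled medians were 0.89 and 0.86, so the agreement was present within genotypes. Of the 82 members, 68 had r above 0.8 with the median of the other members, against 8.17% of the other genes tested. These correlations describe values that share libraries and a common normalization. The non-members most like the members were Srp14, Psmb7, Eif3i, Fam173a, Psma2, Psmb4, Gng5, Eif3g, Psmb3 and Cox14, with r of 0.976 to 0.987. They include genes of the signal recognition particle, the proteasome and translation initiation beside 1 assembly factor of complex IV, so the pattern was not particular to mitochondrial genes.

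The exceptions to the block were few. Ndufb2 had r of -0.24 with the median of the other members, Cox4i2 0.05, Ndufa4l2 0.17 and Cox6a2 0.20. Then came Ndufs1 (0.57), Cox7b (0.59), Sdha (0.61) and Cox7a2l (0.63). Ndufs1 is the largest core subunit of complex I and varied little, at 12.13 to 12.41 log2 units in all libraries. Cox7b reached 13.47 in replicate 11 of Foxa2+/- and 13.18 in replicate 4 of the wild type, against 12.20 to 13.01 in the other libraries.

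Transcript length went with the size of the difference. The principal transcript, as the gene annotation marks it, had a median length of 810 bases in the members, 52 of which were no longer than 1000 bases, and of 2910 bases in 13633 other genes tested. Among other genes, the median difference between Falcor-/- and wild type was 0.29 for 828 genes of up to 1000 bases, 0.12 for 6273 genes of 1000 to 3000 bases and -0.11 for 6532 longer genes. The members of up to 1000 bases had a median of 0.35 and the 30 longer members one of 0.25. Between double-heterozygous and wild-type libraries, the other genes had medians of 0.19, 0.11 and -0.02 in the same length classes, and the members of up to 1000 bases one of 0.20. Library by library, the 828 other short genes gave nearly the same order as the members, at 0.51 in Falcor-/- replicate 9, 0.43 in replicate 8 and -0.01 in replicate 7.

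**Figure D4:**
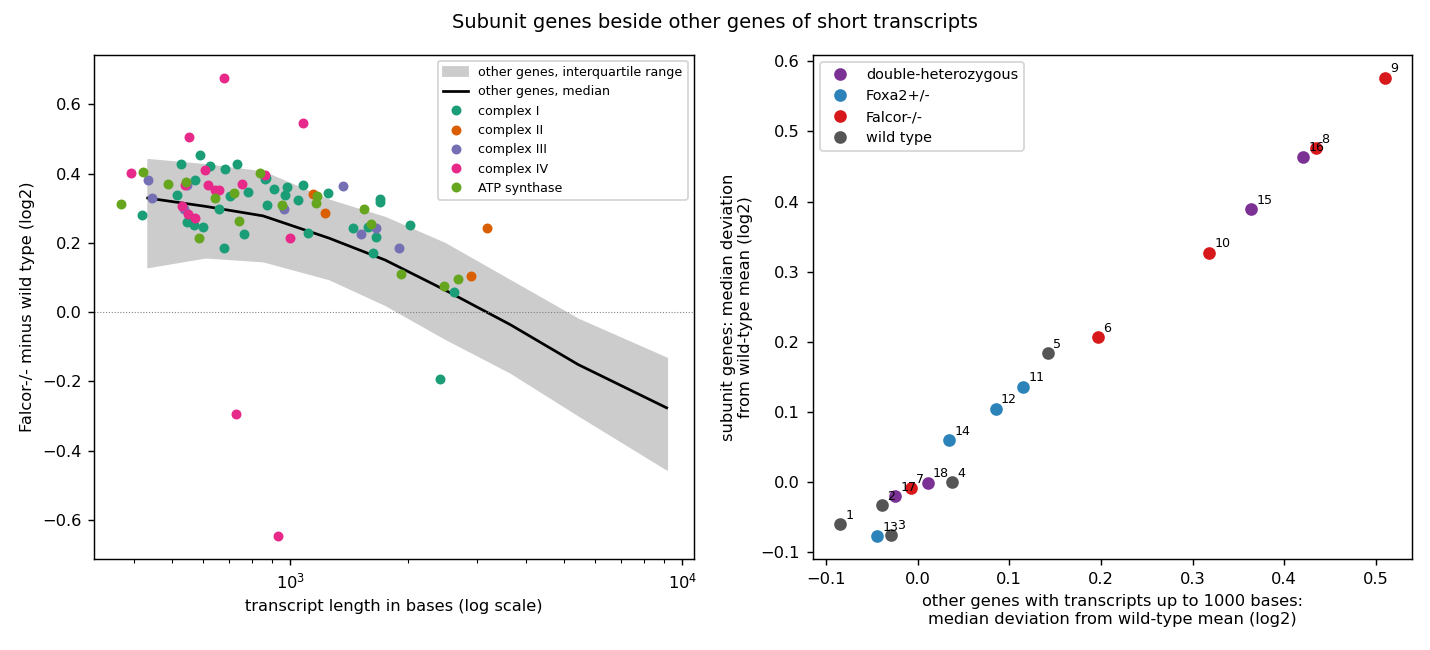
Left, difference between Falcor-/- and wild type (log2) of each subunit gene against the length of its principal transcript (log axis), with the median and interquartile range of the other genes in bins of length; right, median deviation of the subunit genes from the wild-type mean in each library (points, with replicate numbers) against that of other genes with transcripts of up to 1000 bases. Most subunit genes lie inside the band of other genes of their length, and the libraries fall near a line.

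When each library was corrected for transcript length, by subtracting a smooth curve fitted over 13715 genes, the block shift became small. This correction was chosen after the values were seen. The median difference of the members was then 0.05 for Falcor-/-, 0.02 for double-heterozygous and 0.00 for Foxa2+/- against wild type. Between Falcor-/- and wild type no member was called, against 5.64% of all genes with a length. In limma 16 members had p below 0.05 before adjustment, and this count has no share of all genes beside it. The deviation of the members was then at most 0.10 (Falcor-/- replicate 9), and the wild-type libraries ran from -0.05 to 0.07. The calls of Cox6a2 and Ndufa4l2 in Foxa2+/- cells and of Cox4i2 and Ndufa4l2 in double-heterozygous cells remained. Sdha, Sdhc and Cox6a2 in double-heterozygous cells were not called, with differences of 0.16, 0.22 and 0.68 (adjusted p = 0.054, 0.072 and 0.079). Ndufc2 in Foxa2+/- and double-heterozygous cells (differences of 0.18 and 0.17) and Uqcrfs1 in double-heterozygous cells (0.17) were called in addition. The shares of all genes called after the correction were 8.71% in Foxa2+/- and 16.7% in double-heterozygous cells. What made the levels follow length in these libraries was not tested.

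Ndufa4l2, an inhibitory relative of the complex IV subunit Ndufa4 that is induced at low oxygen, had the largest differences of all members. Its levels were 5.70, 4.99, 4.84 and 4.80 log2 units in double-heterozygous libraries and 5.32, 5.23, 4.41 and 5.08 in Foxa2+/- libraries. They were 7.52, 5.54, 6.94, 7.35 and 8.54 in Falcor-/- libraries and 8.24, 7.69, 6.72, 7.75 and 8.72 in wild-type libraries. Every library with a disrupted Foxa2 copy lay below every wild-type library, and the Falcor-/- libraries overlapped with the wild type. Ndufa4l2 fell by 2.74 ± 0.48 in double-heterozygous cells (SE, adjusted p = 0.0010) and fell by 2.82 ± 0.48 in Foxa2+/- cells (SE, adjusted p = 0.0015), and the calls remained without each library in turn. In libraries with a disrupted Foxa2 copy these levels lie under the mean of 6 that the filter required over all libraries.

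Cox4i2, the isoform of subunit IV known from lung and low oxygen, went the same way. Its levels were 8.30, 7.59, 7.66 and 7.66 log2 units in double-heterozygous, 7.59, 8.63, 8.40 and 8.28 in Foxa2+/-, 8.15, 8.28, 8.30, 8.53 and 9.70 in Falcor-/-, and 8.92, 9.17, 7.94, 8.83 and 9.59 in wild-type libraries. It fell by 1.09 ± 0.34 in double-heterozygous cells (SE, adjusted p = 0.039), with replicate 15 inside the wild-type range. The call was lost without any 1 of replicates 16, 17, 18, 1, 2, 4 and 5 (adjusted p of 0.063 to 0.108). In Foxa2+/- cells it differed by -0.66 ± 0.34 (SE, adjusted p = 0.30).

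Markers of endothelial and mesenchymal cells moved with Ndufa4l2 and Cox4i2. In double-heterozygous cells 13 of 15 endothelial markers and 12 of 14 mesenchymal markers were lower than in wild type, with median differences of -2.57 and -2.12. In Foxa2+/- cells 13 of 15 and 8 of 14 were lower, with medians of -2.16 and -1.46. In Falcor-/- cells all 15 endothelial and all 14 mesenchymal markers had a negative difference, with medians of -0.75 and -0.71. Among them, no endothelial and 1 mesenchymal marker was called lower. Ndufa4l2 and Cox4i2 differed by -0.65 and -0.29 there and were not called. The shares of all genes called lower were 7.57% in double-heterozygous, 4.15% in Foxa2+/- and 4.24% in Falcor-/- cells. The mean level of the mesenchymal markers was 9.12 to 9.31 in double-heterozygous, 9.02 to 10.52 in Foxa2+/-, 9.89 to 11.29 in Falcor-/- and 10.47 to 11.76 in wild-type libraries. Within the wild type, replicate 3 had the lowest and replicate 5 the highest level of Ndufa4l2, of Cox4i2 and of the endothelial list. In Falcor-/-, replicate 10 had the highest of all 3, while replicate 7 had the lowest Ndufa4l2 and replicate 6 the lowest Cox4i2. The ranks parted in Foxa2+/-, where replicate 11 had the highest Ndufa4l2 and the lowest Cox4i2. The part of these cells in both results was not tested.

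Cox6a2, the isoform of subunit VIa that predominates in heart and skeletal muscle, was higher with a disrupted Foxa2 copy. Its levels were 11.67, 11.62, 11.03 and 11.28 log2 units in double-heterozygous, 11.51, 11.42, 11.93 and 11.37 in Foxa2+/-, 10.95, 11.17, 11.66, 10.85 and 11.34 in Falcor-/-, and 10.56, 10.93, 10.58, 10.92 and 9.58 in wild-type libraries. Replicate 5 of the wild type lay about 1 log2 unit below the other wild-type libraries. Cox6a2 rose by 0.88 ± 0.24 in double-heterozygous cells (SE, adjusted p = 0.020) and by 1.04 ± 0.24 in Foxa2+/- cells (SE, adjusted p = 0.014). In Falcor-/- cells the difference was 0.68 ± 0.23 (SE, adjusted p = 0.061). The call was lost in double-heterozygous cells without replicate 15 or 16 (adjusted p = 0.071 and 0.069) and in Foxa2+/- cells without replicate 13 (0.063), and it remained without the low wild-type replicate 5 (differences of 0.65 and 0.81).

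Of 6 measured markers of heart muscle, 2 had a positive difference in each of these genotypes, up to 0.40 in double-heterozygous and 0.62 in Foxa2+/- cells, and none was called higher. The myosin Myh7 fell by 0.73 in double-heterozygous cells (adjusted p = 0.041) and fell by 1.17 in Foxa2+/- cells (adjusted p = 0.0041). Its double-heterozygous call was lost without any 1 of replicates 15, 16, 18, 2, 3, 4 and 5 (adjusted p up to 0.144). The part of muscle cells in the Cox6a2 result was not tested. The mean level of these 6 genes was 9.90 to 9.99 in double-heterozygous, 9.57 to 10.06 in Foxa2+/-, 9.66 to 10.32 in Falcor-/- and 9.90 to 10.33 in wild-type libraries. The other muscle isoform among the members, Cox7a1, was not called, at 7.12 to 7.84 in double-heterozygous, 7.18 to 7.44 in Foxa2+/-, 7.46 to 7.76 in Falcor-/- and 6.86 to 7.48 in wild-type libraries. Cox6a1, the form of subunit VIa found in most tissues, was not called in any genotype.

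**Figure D5:**
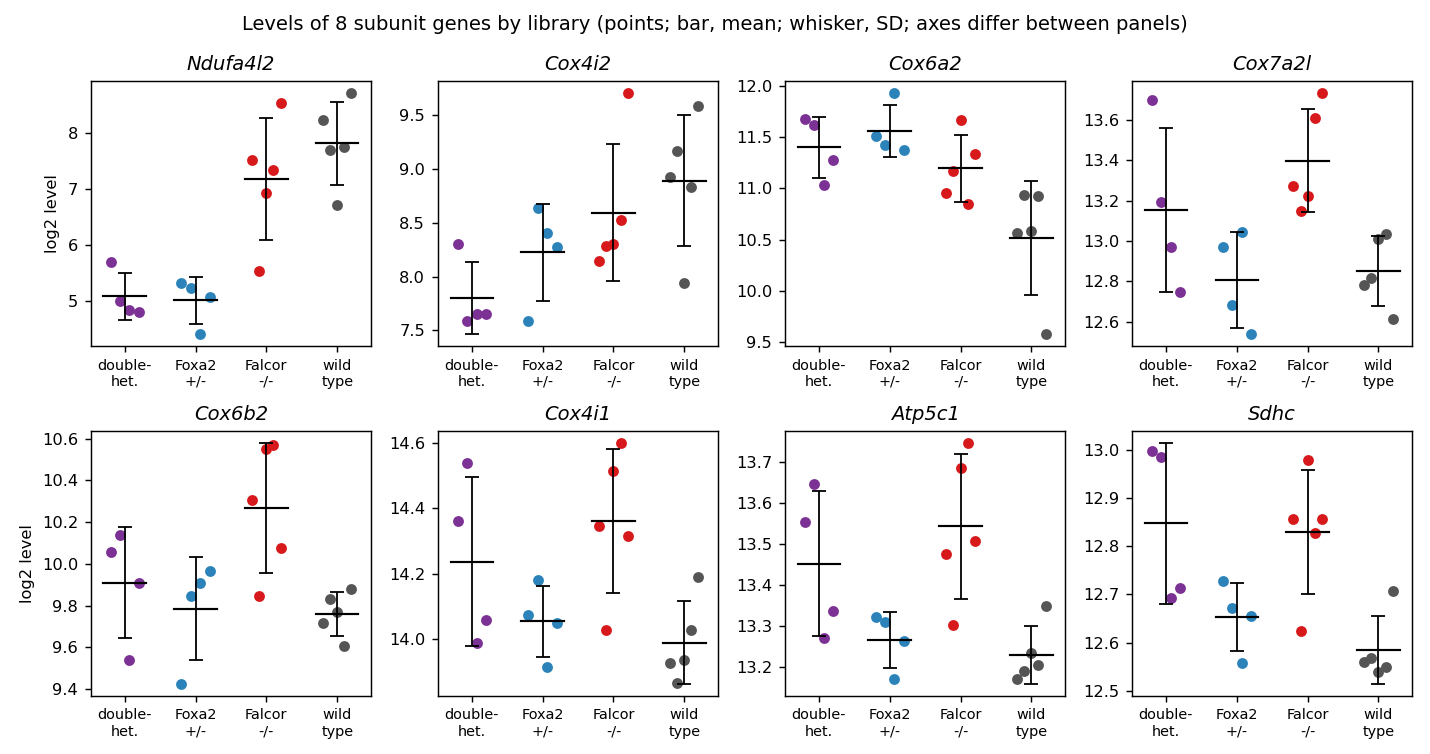
Levels (log2) of 8 subunit genes in each library (points) by genotype, with the mean (bar) and SD (whisker); the axes differ between panels. Ndufa4l2 lies between 4.41 and 5.70 in all libraries with a disrupted Foxa2 copy and at 6.72 or above in the wild type, while Cox4i1, Atp5c1 and Sdhc show the split of the double-heterozygous libraries into a high and a low pair.

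Between mutant genotypes, 8 members were higher in Falcor-/- than in Foxa2+/- cells, near the 8.56% of all genes, and none was lower (8.1% of all genes). Before adjustment 34 had p below 0.05 as higher and 1, Ndufb2, as lower (-0.24, adjusted p = 0.14). After adjustment, 16.7% of all genes were called in either direction. The share of all genes with p below 0.05 before adjustment was thus at least as large. The strongest was Ndufa4l2 (difference 2.17 ± 0.48, SE, adjusted p = 0.010), followed by Sdhd (0.37 ± 0.10, adjusted p = 0.020) and Cox7a2l (0.59 ± 0.17, adjusted p = 0.030). Cox7a2l averaged 13.40 ± 0.26 in Falcor-/- and 12.81 ± 0.24 in Foxa2+/- libraries, without overlap (SD, n = 5 and 4). The count of called members ranged from 1 without replicate 9 to 42 without replicate 7 (beside 8.68% and 31.1% of all genes). It was 5 without replicate 11, 4 without replicate 6 and 3 without replicate 8 (beside 15.7%, 9.42% and 14.9% of all genes). Without any of replicates 10, 12, 13 and 14 it was 2, beside 4.99% to 8.73% of all genes. Corrected for transcript length, 4 remained, beside 18.3% of all genes with a length: Ndufa4l2, Sdhd, Atp5o and Cox5b.

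No member was called between double-heterozygous and Foxa2+/- cells in limma, against 1.06% of all genes higher and 1.37% lower. Before adjustment 1 had p below 0.05, the anchor Sdhc (difference 0.19 ± 0.08, SE, adjusted p = 0.22), and with library weights 11 members and 13.9% of all genes were called, which are like shares. Between double-heterozygous and Falcor-/- cells, Ndufa4l2 fell by 2.09 ± 0.48 (SE, adjusted p = 0.017) and lost its call without replicate 17 (adjusted p = 0.057). No other member was called, against 2.15% of all genes higher and 3% lower. The comparisons with wild type share the wild-type libraries, and each mutant genotype enters 3 comparisons.

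The rest of the pathway was measured as well, and its counts of calls stand beside the shares of all genes called. These shares were 7.21% higher and 7.57% lower in double-heterozygous, 1.96% and 4.15% in Foxa2+/-, and 5.23% and 4.24% in Falcor-/- cells. Of the subunits encoded by mitochondrial DNA, 11 of 13 were measured, and none was called in any comparison with wild type. Their median differences were -0.07 in double-heterozygous, -0.08 in Foxa2+/- and 0.10 in Falcor-/- cells, and 1, 2 and 2 of them had p below 0.05 in limma before adjustment. Between Falcor-/- and Foxa2+/- cells 10 of the 11 had a positive difference, with a median of 0.21, and mt-Nd4 (0.26, adjusted p = 0.037) and mt-Cytb (0.27, adjusted p = 0.049) were called higher. In that comparison 8.56% of all genes were called higher. Of 44 assembly factors, 5 were higher and 1 lower in double-heterozygous cells, none changed in Foxa2+/- cells (1 with p below 0.05 before adjustment), and 5 were higher and 1 lower in Falcor-/- cells. The lower one was Coa5, a factor needed to build complex IV, which fell by 0.19 in double-heterozygous and fell by 0.25 in Falcor-/- cells. Uqcc1, an assembly factor of complex III, rose by 0.24 in double-heterozygous cells, and Ndufaf6, one of complex I, rose by 0.49 in Falcor-/- cells.

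Of 15 genes for cytochrome c and coenzyme Q, 1 was higher in each genotype: Coq8a, a kinase-like protein of coenzyme Q synthesis, by 0.62 in double-heterozygous and by 0.41 in Foxa2+/- cells, and Coq5, a methyltransferase of that pathway, by 0.33 in Falcor-/- cells. Of 17 genes of the tricarboxylic acid cycle, which feeds the chain with electrons, 2 were higher in double-heterozygous cells (Idh2 by 0.54 and Dlst by 0.17), 1 in Foxa2+/- cells (Idh2 by 0.36) and 1 in Falcor-/- cells (Fh1, fumarase, by 0.34). Of 16 regulators of mitochondrial biogenesis, Esrra, a nuclear receptor that activates subunit genes, rose by 0.29 in double-heterozygous and by 0.38 in Falcor-/- cells. The median of that list was 0.06 in double-heterozygous, 0.11 in Foxa2+/- and -0.08 in Falcor-/- cells. Of 18 glycolysis genes, 3 were higher and 1 lower in double-heterozygous cells, and 4 were higher in Falcor-/- cells. They included Ldha, which makes lactate, by 0.24 in double-heterozygous and by 0.23 in Falcor-/- cells, and Aldoc, an aldolase, by 0.57 in Falcor-/- cells. The share of all genes called higher was 7.21% in double-heterozygous, 1.96% in Foxa2+/- and 5.23% in Falcor-/- cells. 

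Many of these single calls were near the threshold. Without single libraries, the call was lost for Coq8a in Foxa2+/- cells without any but replicate 2 (adjusted p up to 0.128), and for Idh2 in Foxa2+/- cells without replicate 11, 12, 14, 1, 2 or 4. In double-heterozygous cells it was lost for Dlst without replicate 15, 16, 1, 2, 4 or 5, for Ldha without 15, 16, 1 or 4, for Coa5 without 15, 16, 2 or 5, for Esrra without 15 or 16 and for Uqcc1 without 15. In Falcor-/- cells it was lost for Fh1 without replicate 8, 9, 10, 1, 2 or 4, for Ldha without 6, 8, 9, 1, 2, 3 or 4, for Coq5 without 6, 8, 1 or 2 and for Ndufaf6 without 8, 9, 1, 2 or 4. Coq8a and Idh2 in double-heterozygous cells and Esrra, Coa5 and Aldoc in Falcor-/- cells kept their calls without each library in turn. Corrected for transcript length, differences that were no longer called were 0.39 for Coq8a in Foxa2+/- cells (adjusted p = 0.054), 0.098 for Dlst and 0.11 for Ldha in double-heterozygous cells, and 0.21 for Coq5, 0.28 for Fh1 (adjusted p = 0.055), 0.069 for Ldha and 0.25 for Ndufaf6 in Falcor-/- cells.

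Other cell types also differed beside these results. Of 15 macrophage markers, 8 were lower in double-heterozygous, none in Foxa2+/- and 7 in Falcor-/- cells, and the list's mean level was 10.50 to 11.86, 12.25 to 12.56 and 10.26 to 12.58 in these genotypes, against 12.13 to 12.92 in wild type. The list was mixed in Falcor-/- cells, where 6 of the 15 had a positive difference, up to 0.66, and none was called higher. Of 10 markers of alveolar type 1 cells, 8 were lower in double-heterozygous and 8 in Foxa2+/- cells. The 15 markers of alveolar type 2 cells held 1 call, S100g in double-heterozygous cells, and averaged 16.19 to 16.82 in all libraries. Of 10 epithelial markers, 1 was higher in double-heterozygous, 2 in Foxa2+/- and 3 in Falcor-/- cells. Of 10 club cell markers, 2 were higher in double-heterozygous cells. Of 15 ciliated cell markers, 1 was higher in Falcor-/- cells, and of 9 lymphocyte markers tested, 1 was lower there and in double-heterozygous cells. Of all genes, 7.21% were called higher and 7.57% lower in double-heterozygous, 1.96% and 4.15% in Foxa2+/-, and 5.23% and 4.24% in Falcor-/- cells. The part of the marker shifts in the members' levels was not tested.

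Because the members moved together, the letters of 4 motifs known from promoters of respiratory genes were looked up on both strands in the 300 bases around each gene's start (250 before, 50 after; RefSeq, GRCm38.p6). Of the 82 members, 66 had a window. The NRF1 letters GCGCNTGCG stood in 23 of them (34.8%), against 7.12% of 27025 genes. Those are all RefSeq genes with a window, measured here or not. The shares are thus not set against genes expressed in these cells alone. The ETS letters bound by GABP, CCGGAAG, stood in 16 (24.2%), against 9.93%, the YY1 letters AAGATGGC in 10 (15.2%), against 3.19%, and the estrogen-related receptor letters CAAGGTCA in 4 (6.06%), against 1.76%. The NRF1 letters were in 8 of 15 windows of the ATP synthase, 9 of 31 of complex I, 2 of 3 of complex II, 3 of 5 of complex III and 1 of 12 of complex IV. Members with and without them had like differences between Falcor-/- and wild type, with medians of 0.31 and 0.34. A match describes the letters and is no binding site by itself.

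The 6 stretches of 30 bases below show these letters in capitals, 5′ to 3′ on the strand of the gene, at least 1 from each complex and with 3 members called in Falcor-/- cells (Atp5c1, Atp5o and Ndufa6). All 6 genes lie on the minus strand of GRCm38.p6, at chr2:10080429-10080458 (Atp5c1), chr16:91931602-91931631 (Atp5o), chr15:82354249-82354278 (Ndufa6), chr9:50603908-50603937 (Sdhd), chr11:4704324-4704353 (Uqcr10) and chr5:115349101-115349130 (Cox6a1).
Atp5c1: tgagctcccgCGCACGCGCactgagtcccg
Atp5o: gctggcgcgcGCGCGTGCGctctggcgcca
Ndufa6: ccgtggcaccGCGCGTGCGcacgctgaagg
Sdhd: cgctggggtgCGCACGCGCggtggcagcgc
Uqcr10: ttgggttctaCGCAAGCGCagtggcgcgag
Cox6a1: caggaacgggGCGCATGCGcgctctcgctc
In Atp5c1, Sdhd and Uqcr10 the letters in capitals read on the opposite strand of the gene. The window of Cox6a1 held 3 matches, of which 1 is in capitals; a match on the opposite strand overlaps it, shifted by 1 base, and ends in the lower-case letter after it. In Atp5c1, Sdhd and Cox6a1 they lie before the start, and in Atp5o, Ndufa6 and Uqcr10 they begin at or after it.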

How the data were processed

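The deposited values, 1 file per library, are log2 levels of 15544 Ensembl genes that the authors had already normalized. The submitters' processing notes name STAR, limma and the build mm9. For the counter, annotation, strand setting and versions nothing is given in the sources used here. Values run from 1 to 18.73 and, in the top 90% of ranks, differ by at most 0.0512 log2 units between libraries at the same rank, so a shift of all genes would not show, and the depth is unknown. Levels are not per length and were not compared between genes.

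Symbols came from GENCODE vM21 (GRCm38) by Ensembl identifier: 14994 matched and 550 did not. Genes with a mean of at least 6 log2 units (15249) were fitted with limma 3.58.1 in R 4.3.3, with 1 mean per genotype over 18 libraries and an intensity trend, checked on simulated data. The simulated noise was independent between genes, with the same spread in every genotype, and 200 genes were shifted. Genes that vary together, as the members did, were not simulated. Of genes shifted by 0.3 log2 units in the simulated data, 14% were called in Falcor-/-, 18% in Foxa2+/- and 12% in double-heterozygous libraries. Shifts of 1 log2 unit were called in 76% to 80%. A gene that was not called can thus still differ by a small amount. The 6 contrasts were two-sided and adjusted by Benjamini-Hochberg over all genes, with adjusted p below 0.05 as a call. Differences are first-named minus second, in log2 units. Exact permutation tests are two-sided over libraries, and the smallest p they can give is 0.0079 (0.0286 for 4 against 4 libraries).

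The members, lists and tests were chosen with earlier results of these data known. Named genes are up to 3 called members in each direction per complex with the smallest p (or the smallest p where none was called), isoform families and core subunits, and up to 2 called genes per pathway or marker list; 1 member counted in all totals is not reported here by name. The likeness list, the length classes, the length correction (loess, span 0.3) and the motif search were chosen after values were seen. Alternatives were other filters, no trend, library weights, centring, renewed quantile normalization, a fit of 2 genotypes and leaving out each library.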

Additional observations from a re-analysis of the deposited data

Results flagged for a closer look

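Of 180 sets of libraries of 1 genotype examined for 1 value far from the rest, 13 held one, and chance flags about 1 in 20. In 10 of these the library was wild-type replicate 5, which stood above the other 4 in Atp5g3 (13.42), Ndufa6 (12.67), Sdhc (12.71), Cox6b1 (13.09), Cox6c (13.10), Cox7a2 (12.18) and Cox8a (13.47 log2 units), below them in Cox6a2 (9.58), and above them in the median deviation of all members (0.18) and of the ATP synthase (0.19). Cox4i2 was high in double-heterozygous replicate 15 (8.30) and in Falcor-/- replicate 10 (9.70), and Ndufv1 was low in Foxa2+/- replicate 13 (12.63).

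Some members differed between mutant genotypes by the test of that difference. Between Falcor-/- and Foxa2+/- cells these were Atp5c1 (0.28), Atp5o (0.41), Ndufb7 (0.43), Sdhd (0.37), Cox5b (0.44), Cox6b2 (0.48), Cox7a2l (0.59) and Ndufa4l2 (2.17), all higher in Falcor-/- cells. Between double-heterozygous and Falcor-/- cells it was Ndufa4l2 (-2.09).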

How the results depend on the processing

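No paired analysis was possible because the replicate numbers run from 1 to 18 and no 2 genotypes share one. Leaving out each library in turn moved the number of called members to 0 to 63 (Falcor-/- versus wild type), 1 to 2 (Foxa2+/- versus wild type), 1 to 12 (double-heterozygous versus wild type), 1 to 42 (Falcor-/- versus Foxa2+/-) and 0 to 1 (double-heterozygous versus Falcor-/-). Without an intensity trend it was 3 for Falcor-/- versus wild type and 5 for Falcor-/- versus Foxa2+/-. Library weights gave 52, 57 and 25 for Falcor-/- versus wild type, double-heterozygous versus wild type and Falcor-/- versus Foxa2+/-, and 11 for double-heterozygous versus Foxa2+/-. A fit of the 2 genotypes alone gave 2, 3 and 2 for the same first 3, and 0 for double-heterozygous versus Falcor-/-. Requiring a mean of 8 log2 units, which removes Ndufa4l2, gave 1 for Foxa2+/- versus wild type and 0 for double-heterozygous versus Falcor-/-. Corrected for transcript length, the number was 0 for Falcor-/- versus wild type (median difference 0.047) and 4 for Falcor-/- versus Foxa2+/- (median 0.033). Filtering nothing, centring and renewed quantile normalization left every count within 1.5 times. Of all genes tested, the calls (1444 for Falcor-/- versus wild type, 932 for Foxa2+/- versus wild type, 2254 for double-heterozygous versus wild type, 2540 for Falcor-/- versus Foxa2+/-, 370 for double-heterozygous versus Foxa2+/- and 785 for double-heterozygous versus Falcor-/-) became 3446, 1947, 4939, 4757 and 2125 for the first 5 with library weights, 774 for the first and 561 for the fifth with the length correction, and 483, 1181 and 342 for the first, the fourth and the sixth with 2 genotypes alone. With libraries left out they ran from 354 to 3927, 558 to 1119, 1348 to 2443, 761 to 4744, 90 to 381 and 419 to 1232 in the same order. The cause of these moves was not tested, except that the filter removes Ndufa4l2.

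Among the members listed here and tried under every setting, signs turned only in those not called in that comparison. Corrected for length, they turned for Falcor-/- versus wild type in Atp5g2 (-0.11), Cox6a1 (-0.054), Cox7b (-0.036), Cox8a (-0.046), Ndufa4 (-0.029), for Foxa2+/- versus wild type in Atp5g3 (-0.035), Cox6b1 (-0.015), Cox6b2 (-0.026), Cox7c (-0.0021), Ndufa4 (-0.043), Ndufs7 (-0.011), and for double-heterozygous versus wild type in Atp5g3 (-0.0047), Cox6a1 (-0.079), Cox6b2 (-0.068), Cox7a1 (-0.055), Cox7b (-0.083), Cox8a (-0.014), Ndufa4 (-0.056), Sdhd (-0.037). With library weights they turned in Cox6a1 (0.014, Foxa2+/-) and Atp5g1 (0.12, double-heterozygous). With libraries left out, Atp5g1 ran from -0.12 to 0.098 (double-heterozygous), -0.14 to 0.020 (Foxa2+/-) and -0.012 to 0.20 (Falcor-/-), and for Foxa2+/- Atp5g3 ran from -0.023 to 0.073, Cox5b ran from -0.11 to 0.027, Cox6a1 ran from -0.061 to 0.062, Cox6b1 ran from -0.00072 to 0.093, Cox6b2 ran from -0.035 to 0.14, Cox7a1 ran from -0.036 to 0.12, Cox7a2l ran from -0.12 to 0.048, Cox7b ran from -0.092 to 0.35, Ndufa4 ran from -0.035 to 0.074, Ndufs7 ran from -0.0090 to 0.084.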
